A study of Homo sapiens with 6 samples.

Results

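The 44 genes described here code for proteins that make ribosomes in the nucleolus, among them FBL, NCL, NPM1, DKC1, NOP56, RRP12, the RNA polymerase I subunit gene POLR1A and the rDNA transcription factor gene UBTF. They are a named list, taken by gene symbol from the 3 deposited tables, and for each gene the transcript entry on a primary chromosome with the most reads stood for it. All 44 were found, out of 26852 genes with such an entry, and all 44 were tested in each table. RNA was sequenced from U2OS 2-6-3, a clonal human osteosarcoma line that carries a chromosomal reporter array with operator repeats. There were 3 groups of 2 libraries. The sample group was transiently transfected with 3 constructs, CIBN-TetR and PHR-YFP-VP16 together with mCherry-MCP. CIBN and PHR bind each other under blue light, which can recruit VP16, a viral activation domain, to tet operators. The mock group was transiently transfected with TetR-RFP and YFP with the same Roche reagent, and for the untransfected group the labels give neither constructs nor a transfection protocol. All groups were grown in serum free of doxycycline and kept under white light overnight, so light did not differ between them, and transfected cells were not separated from untransfected neighbours in any step the labels describe.

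Ribosome production starts in the nucleolus, where RNA polymerase I copies the ribosomal DNA into a long precursor RNA. Small nucleolar RNPs modify that precursor, the small subunit processome cuts and folds its 40S part, and a separate set of factors assembles the 60S part before both subunits leave the nucleus. Many of these factor genes are known targets of the transcription factor MYC, and in growing tumour lines such as osteosarcoma cells they are expressed throughout. Here the messenger RNAs of the factors were measured, not ribosomal RNA or ribosomes.

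Library depth, as reads over all transcript entries, was 50105854 and 9579278 for sample, 54177551 and 44594507 for mock, and 53596406 and 51146190 for untransfected cells. In each group the deeper library is called a and the shallower b, and values per group are given in that order. Sample library b was the shallowest and stood furthest from its partner. Over 12577 genes with a mean of at least 50 normalized read counts, the SD of the log2 ratio of library b to library a was 0.395 in the sample pair, 0.207 in the mock pair and 0.173 in the untransfected pair. The osteosarcoma and mesenchymal markers VIM, SPARC, COL1A1, FN1, CDH2, THY1, RUNX2 and COL1A2 were all detected, with a summed level of 90333 to 110800 normalized read counts in sample, 94657 to 97777 in mock and 89878 to 93634 in untransfected libraries. COL1A2 was below 30 in every library. Near-level sums hid single markers that differed between transfected and untransfected cells, named here after their values were seen. FN1 was at 18310 and 18710 normalized read counts in sample, 22370 and 19400 in mock and 7572 and 7637 in untransfected libraries, while RUNX2 was at 93.1 and 132 in sample, 66.7 and 64.0 in mock and 379 and 414 in untransfected libraries. SPARC was at 21380 and 20890, 20380 and 21380, and 31910 and 32300 normalized read counts in the same order of groups. COL1A1 did not follow 1 pattern, at 6105 and 14770 in sample, 5574 and 5448 in mock and 7824 and 8117 in untransfected libraries. Its sample libraries thus lay on either side of the untransfected ones, with library b highest of all. Summed epithelial markers were at 15234 to 17458 in sample, 14827 to 17637 in mock and 13604 to 14659 in untransfected libraries, most of it from KRT8 and KRT18. Single markers went both ways. CLDN4 was at 136 and 148, 123 and 105, and 1424 and 1492 normalized read counts in the same groups, and EPCAM was lower too, at 60.24 and 57.65, 85.09 and 46.37, and 190.4 and 173.9. KRT18 was higher, at 8901 and 10390 in sample, 8968 and 10650 in mock and 5154 and 5479 in untransfected libraries. Summed endothelial markers were at 20.6 to 26.6, 15.8 to 26.2 and 139 to 150.4 in the same groups, the last almost all VWF. Summed blood markers were at 65.9 to 116, 20.4 to 24.1 and 14.3 to 20.8, with CD3E at 0 throughout and HBB at 103 and 61.8 normalized read counts in sample libraries, 11.3 and 3.71 in mock libraries and 1.95 and 4.28 in untransfected libraries, and the part of other cells in the results was not tested. In bulk RNA fewer expressing cells and less RNA per cell cannot be told apart, and the p-values rest on the spread between libraries of a group alone, which may be technical, since no label states that replicates came from separate cultures.

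After either transfection the ribosome biogenesis genes were higher nearly throughout. Reads of the 44 genes together made up 0.610% and 0.581% of all reads in sample, 0.655% and 0.639% in mock and 0.332% and 0.318% in untransfected libraries. Summed normalized read counts were 239285 and 229174 in sample libraries, 251622 and 264120 in mock libraries and 115759 and 115979 in untransfected libraries. The transfected groups thus stood well above the untransfected one in both libraries, and the sample libraries stood somewhat below the mock ones.

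At an adjusted p under 0.05 in the authors' deposited table for sample against untransfected cells, 43 of the 44 genes were higher and 1, UBTF, was lower. Among all 15567 genes tested there, 20.2% were higher and 17.1% lower. In the authors' deposited table for mock against untransfected cells the count was again 43 higher and 1 lower, beside 27.5% higher and 23.3% lower of 17093 genes. The median log2 fold change of the 44 genes was 1.09 for sample and 1.24 for mock against untransfected cells per the authors' deposited tables, where the median of all tested genes was 0.00 in each. A log2 fold change of at least 1 was reached by 24 genes in sample cells and 32 in mock cells, again per the authors' deposited tables. In both comparisons 43 genes had both transfected libraries above both untransfected libraries and UBTF had both below. The same placing held above for 36.6% and below for 37.3% of all genes in sample cells, and for 39% and 40.6% in mock cells. With 2 libraries against 2, an exact permutation test of 1 gene cannot give a p below 0.333. Both comparisons use the same untransfected libraries and are therefore not independent. The deposited fold changes are shrunk toward 0.

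**Figure D1:**
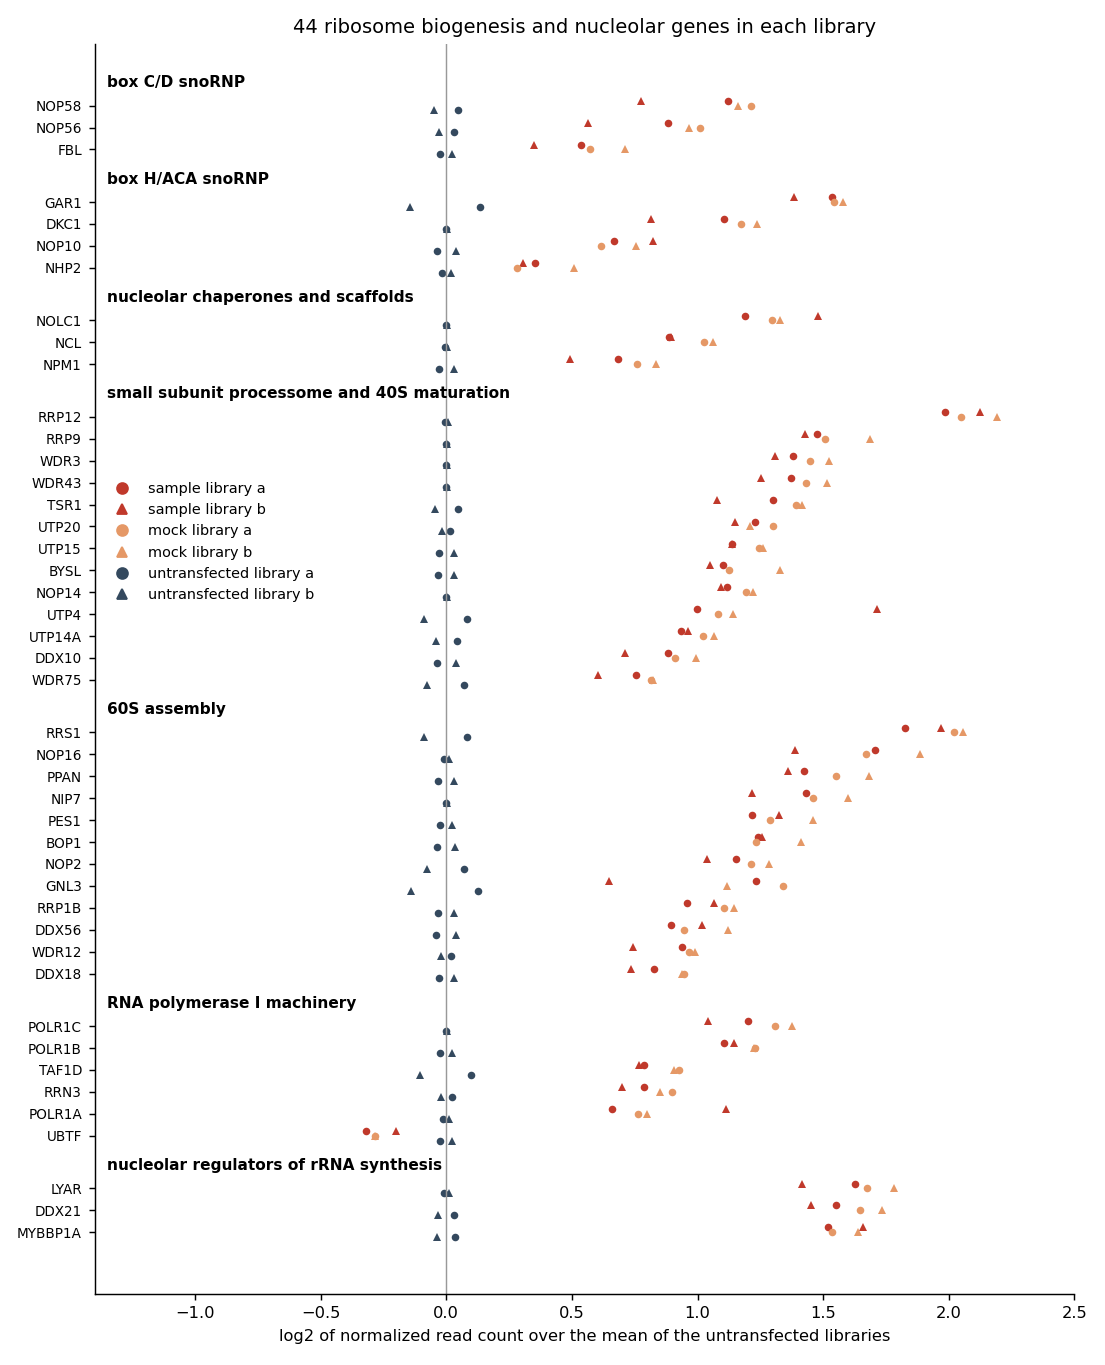
Normalized read count of each of the 44 genes in each of the 6 libraries, as log2 of the ratio to the mean of the untransfected libraries, with genes grouped by role and circles and triangles for libraries a and b. Sample and mock libraries sit to the right of the untransfected ones for 43 genes, furthest for RRP12 and RRS1, and to the left for UBTF.

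The start regions of these genes were read from RefSeq promoter sequences of build GRCh38.p14, which covered 37 of the 44 genes with 250 bases before and 50 after the start nearest to the counted transcript. That start need not be the 5′ end of the counted transcript. The E-box CACGTG, the best known binding sequence of MYC with its partner MAX, was present in 12 of 37, or 32.4%, against 8.28% of 18347 promoters of the same length and 9.51% of the 12991 whose genes were tested in mock cells. The genes with it were FBL, NOP10, NOP14, RRP9, UTP4, UTP14A, UTP20, WDR43, BYSL, NOP2, PES1 and MYBBP1A. The variant CACGCG, searched on both strands, was in 12 of 37 as well, against 14.5% of all promoters. CCGGAAG, a core sequence bound by ETS-family factors and also searched on both strands, was in 15 of 37, or 40.5%, against 13.5% of all promoters. Of the promoters whose genes were tested in mock cells, 17.8% held CACGCG and 17.6% held CCGGAAG. In the authors' deposited table for mock against untransfected cells, members with and without the motif had median log2 fold changes of 1.25 and 1.22 for CACGTG, 0.92 and 1.26 for CACGCG, and 1.35 and 1.22 for CCGGAAG. Such matches describe letters in a window and show no binding.

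The 250 bases before the start are printed for 5 genes, chosen because they hold these motifs and show where in the window they lie. NOP10 (chr15:34343137-34343386, minus strand), UTP4 (chr16:69132399-69132648, plus strand) and UTP20 (chr12:101279855-101280104, plus strand) have CACGTG in capitals. NOP16 (chr5:176388599-176388848, minus strand) and DDX21 (chr10:68955920-68956169, plus strand) have CCGGAAG in capitals, and in NOP16 it overlaps its own reverse complement, so that a palindrome of both is marked. All are written 5′ to 3′ on the gene's strand.
NOP10: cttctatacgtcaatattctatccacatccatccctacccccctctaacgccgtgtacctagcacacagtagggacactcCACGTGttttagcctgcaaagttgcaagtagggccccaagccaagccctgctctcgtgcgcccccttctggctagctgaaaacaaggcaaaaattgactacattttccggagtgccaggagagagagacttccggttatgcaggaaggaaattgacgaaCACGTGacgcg
UTP4: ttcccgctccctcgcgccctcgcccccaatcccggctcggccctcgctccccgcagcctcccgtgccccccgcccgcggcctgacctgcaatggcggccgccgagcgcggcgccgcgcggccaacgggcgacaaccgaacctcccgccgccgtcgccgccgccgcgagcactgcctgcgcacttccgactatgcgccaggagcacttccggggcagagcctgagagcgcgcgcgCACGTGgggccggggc
UTP20: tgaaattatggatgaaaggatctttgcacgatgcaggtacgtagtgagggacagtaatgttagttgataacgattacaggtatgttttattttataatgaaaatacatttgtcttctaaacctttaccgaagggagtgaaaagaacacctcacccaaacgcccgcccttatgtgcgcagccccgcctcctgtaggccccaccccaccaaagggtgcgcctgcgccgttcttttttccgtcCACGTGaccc
NOP16: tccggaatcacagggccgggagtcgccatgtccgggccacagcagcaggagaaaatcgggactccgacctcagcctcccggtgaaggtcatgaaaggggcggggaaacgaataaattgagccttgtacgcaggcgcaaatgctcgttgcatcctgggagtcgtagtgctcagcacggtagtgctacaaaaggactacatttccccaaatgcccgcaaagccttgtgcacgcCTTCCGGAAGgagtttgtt
DDX21: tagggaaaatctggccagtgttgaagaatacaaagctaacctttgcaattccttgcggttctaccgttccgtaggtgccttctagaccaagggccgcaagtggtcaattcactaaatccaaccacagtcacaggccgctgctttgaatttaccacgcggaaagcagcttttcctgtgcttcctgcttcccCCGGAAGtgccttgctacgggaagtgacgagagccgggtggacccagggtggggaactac
The CACGTG nearest to the start began 11 bases before it in NOP10, 16 in UTP4 and 10 in UTP20, and NOP10 had a further copy 170 bases before. CCGGAAG or its reverse complement began 19 and 16 bases before the start in NOP16 and 60 bases before it in DDX21. Further matches were left in lower case. CCGGAAG or its reverse complement also began 42 bases before the start in NOP10 and 46 in UTP4, and CACGCG began 98 before it in DDX21. These starts belong to the promoter set and differ from the 5′ ends of the counted transcripts. On chr16 the counted UTP4 transcript begins at 69132596. On the minus strand, those of NOP10 and NOP16 begin at 34343161 and 176388927. The nearer CACGTG of NOP10, the CACGTG of UTP4 and the whole NOP16 sequence printed therefore lie inside the spans of the counted transcripts.

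Of the 7 role groups, the nucleolar regulators of ribosomal RNA synthesis had the highest median log2 fold change, 1.50 in sample and 1.70 in mock cells per the authors' deposited tables. DDX21, an RNA helicase that binds ribosomal RNA and RNA polymerase I (chr10:68956123-68985069, hg38), had 21699.5 and 20250.1 normalized read counts in sample libraries, 23138 and 24589.5 in mock libraries and 7556 and 7235 in untransfected libraries. All 4 transfected libraries stood far above both untransfected ones, with mock above sample. Its log2 fold change was 1.49 (SE 0.10) for sample and 1.70 (SE 0.07) for mock against untransfected cells per the authors' deposited tables. LYAR, a nucleolar zinc finger protein, had 2167 and 1869 normalized read counts in sample libraries, 2239 and 2414 in mock libraries and 697 and 706 in untransfected libraries, with the same order of groups and no overlap. Its log2 fold change was 1.50 (SE 0.14) for sample and 1.73 (SE 0.09) for mock cells per the authors' deposited tables. MYBBP1A, a nucleolar protein that binds the RNA polymerase I machinery, had 4154 and 4570.5 normalized read counts in sample libraries, 4195 and 4508 in mock libraries and 1485 and 1410.4 in untransfected libraries. The sample and mock values of MYBBP1A interleaved, and both groups lay apart from the untransfected libraries. Its log2 fold changes were 1.56 (SE 0.11) for sample and 1.60 (SE 0.08) for mock cells per the authors' deposited tables.

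RRP12 and RRS1 had the highest fold changes of all 44 genes. RRP12, a HEAT-repeat protein of pre-40S and pre-60S maturation and export (chr10:97356701-97401370, hg38), stood at 7272 and 8017 normalized read counts in sample libraries, 7615 and 8411 in mock libraries and 1832 and 1846 in untransfected libraries. It averaged 7644 ± 527 in sample cells, 8013 ± 563 in mock cells and 1839 ± 9.65 in untransfected cells (SD, n = 2 each), which is 4.16 times the untransfected mean in sample and 4.36 times in mock cells. The log2 fold changes were 2.03 (SE 0.11, adjusted p = 9.78e-78) for sample and 2.13 (SE 0.08, adjusted p = 2.67e-163) for mock cells by DESeq2 per the authors' deposited tables. RRS1, which helps to place the 5S RNP in the 60S precursor, stood at 1162 and 1285 normalized read counts in sample libraries, 1331 and 1363 in mock libraries and 347 and 309 in untransfected libraries. Its sample libraries lay below both mock libraries and far above both untransfected ones. The log2 fold changes of RRS1 were 1.84 (SE 0.16) for sample and 2.03 (SE 0.11) for mock cells per the authors' deposited tables.

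All 13 genes of the small subunit processome and 40S maturation rose after both transfections, with a median log2 fold change of 1.18 in sample and 1.26 in mock cells per the authors' deposited tables. WDR3, a WD-repeat protein of the processome, had 9420.0 and 8939 normalized read counts in sample libraries, 9872 and 10378 in mock libraries and 3611 and 3619 in untransfected libraries. WDR43, also a processome protein, had 9732 and 8959.8 normalized read counts in sample libraries, 10147 and 10747 in mock libraries and 3754 and 3764 in untransfected libraries. For both genes the 3 groups followed each other without overlap, mock above sample above untransfected. The log2 fold changes were 1.33 and 1.50 for WDR3, and 1.30 and 1.49 for WDR43, for sample and mock cells per the authors' deposited tables. UTP4, the processome gene that is mutated in a childhood cirrhosis, had 1476 and 2425 normalized read counts in sample libraries, 1568 and 1633 in mock libraries and 784 and 696 in untransfected libraries. Its 2 sample libraries differed more than those of any other of the 44 genes, and the higher one was the shallow library b. Its log2 fold change was 1.32 (SE 0.21) for sample and 1.12 (SE 0.10) for mock cells per the authors' deposited tables. The other 9 genes of the group were RRP9 of the U3 snoRNP, the WD-repeat gene UTP15, WDR75, the helicase gene DDX10, the late 40S factors TSR1 and BYSL, and NOP14, UTP14A and UTP20. Reads of UTP14A can be shared with its retrocopy UTP14C. Log2 fold changes of these 9 ran from 0.68 (WDR75) to 1.44 (RRP9) for sample and from 0.83 (WDR75) to 1.61 (RRP9) for mock cells per the authors' deposited tables.

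The 12 genes of 60S assembly rose as well, with a median log2 fold change of 1.16 in sample and 1.30 in mock cells per the authors' deposited tables. NOP16, a nucleolar protein of the early 60S precursor, had 2188 and 1758 normalized read counts in sample libraries, 2139 and 2479 in mock libraries and 667 and 676 in untransfected libraries. PES1, which forms the PeBoW complex with BOP1 and WDR12, had 11199.9 and 12036 in sample libraries, 11749 and 13240.2 in mock libraries and 4735 and 4891 in untransfected libraries. In both genes sample and mock values overlapped and untransfected values lay below. The deposited log2 fold changes were 1.53 (SE 0.15) for sample and 1.78 (SE 0.10) for mock cells for NOP16, and 1.26 (SE 0.10) and 1.39 (SE 0.08) for PES1, per the authors' deposited tables. Its partners BOP1, with 1.24 and 1.34, and WDR12, with 0.84 and 0.99, rose too on the log2 scale, per the authors' deposited tables. NIP7, listed here with the 60S factors, had 3395 and 2923 normalized read counts in sample libraries, 3456 and 3807 in mock libraries and 1257 and 1260.0 in untransfected libraries. GNL3, or nucleostemin, a nucleolar GTPase of proliferating cells, had 5367 and 3578 normalized read counts in sample libraries, 5779.7 and 4948 in mock libraries and 2492 and 2072 in untransfected libraries, the lower value being that of library b in each group. Log2 fold changes for sample and mock cells were 1.31 and 1.54 for NIP7, and 0.94 (SE 0.18) and 1.24 (SE 0.10) for GNL3, per the authors' deposited tables. The remaining genes, NOP2, RRP1B, DDX18, DDX56 and PPAN, ranged from 0.77 (DDX18) to 1.36 (PPAN) for sample and from 0.96 (DDX18) to 1.62 (PPAN) for mock cells per the authors' deposited tables.

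The snoRNP genes rose by less in several cases. The box C/D proteins, which hold the guide RNAs for 2′-O-methylation, are FBL, the methyltransferase, and NOP56 and NOP58. FBL had 6856 and 6007 normalized read counts in sample libraries, 7016 and 7732 in mock libraries and 4642 and 4804 in untransfected libraries. NOP56 had 10109 and 8107 in sample libraries, 11033 and 10710.3 in mock libraries and 5598 and 5373 in untransfected libraries. For both genes the sample libraries lay between the other groups without overlap. Log2 fold changes for sample and mock cells were 0.44 (SE 0.11) and 0.66 (SE 0.08) for FBL, 0.72 (SE 0.13) and 1.00 (SE 0.07) for NOP56, and 0.95 (SE 0.14) and 1.20 (SE 0.07) for NOP58 per the authors' deposited tables. NOP58 had 5591 and 4389 normalized read counts in sample libraries, 5953 and 5742 in mock libraries and 2652 and 2482 in untransfected libraries.

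The box H/ACA proteins direct pseudouridylation, with DKC1 as the enzyme and GAR1, NHP2 and NOP10 as its partners, and their fold changes spread widely. GAR1 had 443 and 399 normalized read counts in sample libraries, 445 and 457 in mock libraries and 168 and 138 in untransfected libraries. DKC1 had 7459 and 6102 in sample libraries, 7812 and 8171 in mock libraries and 3464 and 3469 in untransfected libraries. NOP10 had 3434 and 3825 in sample libraries, 3313 and 3651 in mock libraries and 2106 and 2219 in untransfected libraries. All transfected libraries of these genes lay above the untransfected ones, and for NOP10 sample and mock overlapped. Log2 fold changes for sample and mock cells were 1.39 and 1.54 for GAR1, 0.96 and 1.22 for DKC1, and 0.73 and 0.70 for NOP10 per the authors' deposited tables. NHP2 had 3806 and 3681 normalized read counts in sample libraries, 3623 and 4241 in mock libraries and 2945 and 3016 in untransfected libraries. It rose least of the 43, by a log2 fold change of 0.33 (SE 0.11, adjusted p = 0.0078) in sample and 0.41 (SE 0.09, adjusted p = 9.08e-06) in mock cells by DESeq2 per the authors' deposited tables. With limma-voom the rise of NHP2 in sample cells did not pass without untransfected library a (adjusted p = 0.0817), untransfected library b (adjusted p = 0.0606) or sample library a (adjusted p = 0.0548).

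The genes of nucleolar chaperones and scaffolds are NCL, NPM1 and NOLC1. NCL, or nucleolin, had 16353 and 16458 normalized read counts in sample libraries, 18035 and 18478 in mock libraries and 8835 and 8881 in untransfected libraries. NPM1, or nucleophosmin (chr5:171387704-171410884, hg38), had 15812 and 13880.2 in sample libraries, 16689 and 17559 in mock libraries and 9659.6 and 10059.8 in untransfected libraries, with the reservation that processed pseudogenes can share its reads. NOLC1, a scaffold of snoRNPs and RNA polymerase I, had 4188 and 5118 in sample libraries, 4503 and 4607 in mock libraries and 1834 and 1837 in untransfected libraries. NCL and NPM1 were ordered mock, sample, untransfected without overlap, while the sample libraries of NOLC1 lay on either side of the mock ones. Log2 fold changes for sample and mock cells were 0.88 and 1.06 for NCL, 0.58 and 0.81 for NPM1, and 1.31 and 1.32 for NOLC1 per the authors' deposited tables.

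In the RNA polymerase I machinery 5 genes rose and 1 fell. The core subunit genes POLR1A and POLR1B code for the 2 largest subunits, and POLR1C is shared with RNA polymerase III. POLR1B had 4152 and 4266 normalized read counts in sample libraries, 4525 and 4516 in mock libraries and 1899 and 1964 in untransfected libraries. POLR1C had 2432 and 2178 in sample libraries, 2621 and 2748 in mock libraries and 1058 and 1059.8 in untransfected libraries. POLR1A had 2496 and 3422 in sample libraries, 2682 and 2751 in mock libraries and 1568 and 1594 in untransfected libraries. All 3 lay above the untransfected libraries in every transfected library, and for POLR1A the shallow sample library b stood above all others. Log2 fold changes for sample and mock cells were 1.11 and 1.24 for POLR1B, 1.11 and 1.35 for POLR1C, and 0.87 and 0.79 for POLR1A per the authors' deposited tables. TAF1D, a subunit of the promoter selectivity factor, rose by 0.75 and 0.92, and the initiation factor gene RRN3, whose pseudogenes can share its reads, by 0.73 and 0.88 per the authors' deposited tables.

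UBTF, which codes for the HMG-box factor that binds ribosomal DNA and keeps its genes open, was the 1 gene of the 44 that fell (chr17:44205033-44219673, hg38). It had 4647 and 5060.5 normalized read counts in sample libraries, 4772 and 4769.5 in mock libraries and 5707 and 5907 in untransfected libraries. All 4 transfected libraries lay below both untransfected ones, and the sample libraries lay on either side of the mock ones. The means were 4854 ± 292 in sample cells, 4771 ± 1.81 in mock cells and 5807 ± 141 in untransfected cells (SD, n = 2 each), or 0.836 and 0.822 times the untransfected mean in sample and mock cells. The log2 fold changes were -0.26 (SE 0.10, adjusted p = 0.0351) for sample and -0.26 (SE 0.07, adjusted p = 0.000373) for mock cells by DESeq2 per the authors' deposited tables. With limma-voom the fall in sample cells did not pass without untransfected library b (adjusted p = 0.0832) or sample library a (adjusted p = 0.0784), and the fall in mock cells did not pass without untransfected library b (adjusted p = 0.0547).

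**Figure D2:**
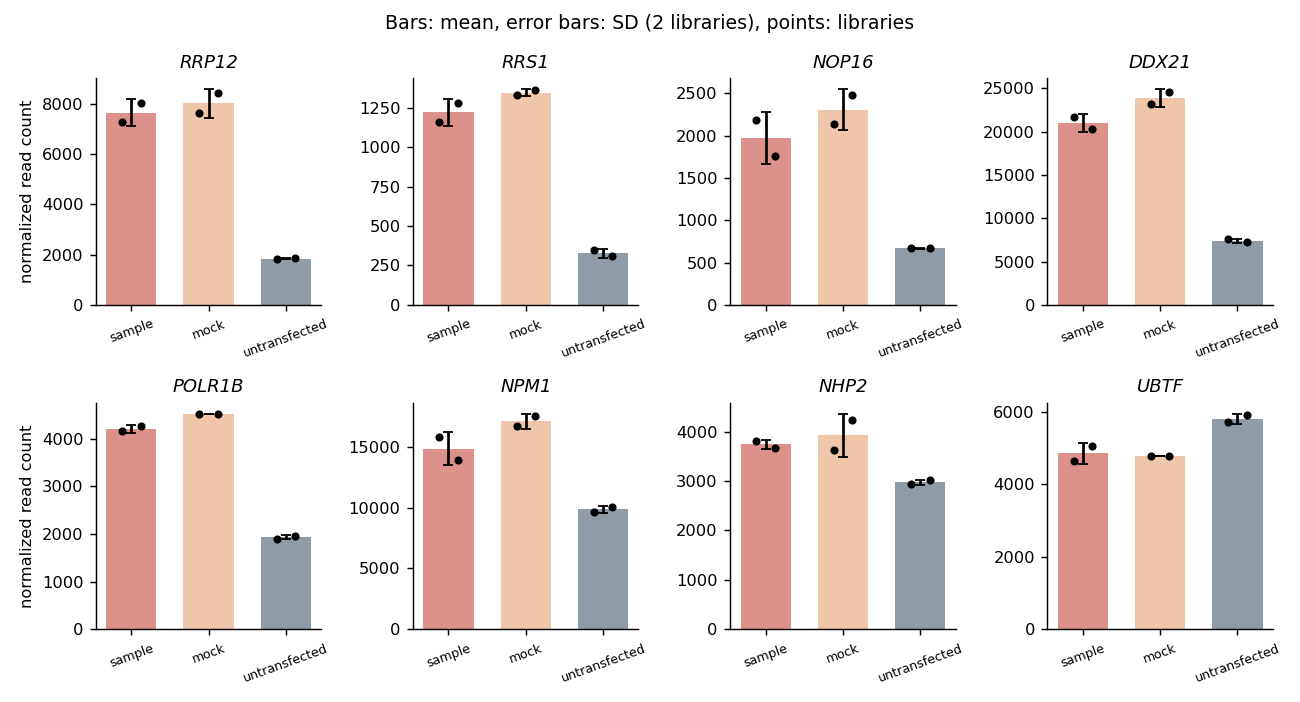
Normalized read count of 8 of the genes in sample, mock and untransfected cells, with bars for means, error bars for SD over 2 libraries and points for libraries. Both transfected groups exceed the untransfected one for 7 genes, with RRP12 and RRS1 showing the widest gap and NHP2 the narrowest, and UBTF is lower in both.

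Per kilobase of transcript, a scale for a rough comparison of different genes, NPM1 was highest in all 3 groups and POLR1A lowest. The length used was that of the longest GENCODE transcript matched to the counted one, 12749 bases for POLR1A. It need not equal the counted length, and the levels and ranks below depend on it. NPM1 had 12002 ± 1104 normalized read counts per kilobase in sample cells, 13843 ± 497 in mock cells and 7971 ± 229 in untransfected cells (SD, n = 2 each). POLR1A had 232 ± 51.3, 213 ± 3.78 and 124 ± 1.43 normalized read counts per kilobase in sample, mock and untransfected cells (SD, n = 2 each). Among the 44 genes ordered by level per kilobase, UBTF was 18th in sample cells, 22nd in mock cells and 8th in untransfected cells. RRP12 was 19th, 21st and 26th, and DDX21 was 5th, 5th and 10th, in the same groups. FBL and NOP10, next in untransfected cells at 4072 ± 98.3 and 3903 ± 144 per kilobase (SD, n = 2), had overlapping libraries there.

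Between the 2 transfected groups no single gene of the 44 passed the test. In the authors' deposited table for sample against mock cells 0 of 44 were called at an adjusted p under 0.05, beside 12 of 15287 genes in all (0.0785%), and at an unadjusted p under 0.05 the count was 0 of 44 beside 299 of 15287. The smallest unadjusted p was 0.0571, for NOP56. The log2 fold changes, which this table shrinks most, ran from -0.19 (NOP56, SE 0.10) to 0.17 (UTP4, SE 0.12), with a median of -0.10 beside 0.00 over all genes, and 38 were below 0 per the authors' deposited table. In 30 genes both sample libraries lay below both mock libraries, a placing that 19.1% of all genes showed, and in 0 genes both lay above, as 15.3% of all genes did. In those 30 genes the sample libraries lay between the mock and the untransfected libraries with no overlap, which 19.1% of the 15086 genes tested in the 3 tables also showed. The ratio of means, sample over mock, ran from 0.834 (GNL3) to 1.22 (UTP4).

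Much of the spread came with sample library b. Over the 44 genes the SD of the log2 ratio of library b to library a was 0.217 in the sample pair, 0.0881 in the mock pair and 0.0925 in the untransfected pair. The sample pair differed by over 0.3 on the log2 scale for 6 genes, with ratios of library b to library a of 0.667 for GNL3, 0.785 for NOP58, 0.802 for NOP56, 0.803 for NOP16, 1.37 for POLR1A and 1.64 for UTP4. Without the deeper sample library a, limma-voom called NOP56, NOP58, DKC1 and GNL3 lower and UTP4 higher in sample than in mock cells, but this rests on library b alone, whose spread is assumed to be that of the other groups. In that fit 841 of 14857 genes, or 5.66%, were called. Without library b it called 0 of the 44.

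**Figure D3:**
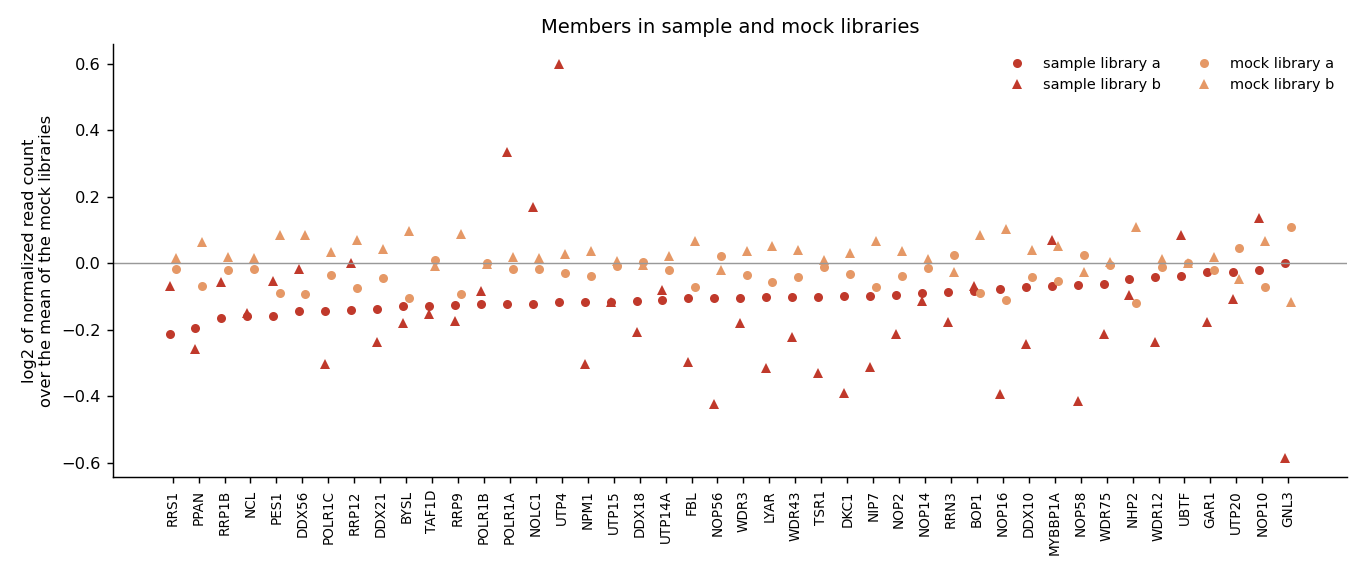
Normalized read count of the 44 genes in the sample and mock libraries, as log2 of the ratio to the mean of the mock libraries, ordered by sample library a. Sample library a lies at or just below the mock libraries for most genes, while library b is scattered, lowest for GNL3 and highest for UTP4.

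Read counts recovered from the deposited means gave the same counts with limma-voom. In that fit 43 genes were higher and 1 lower in sample against untransfected cells, beside 25.6% and 25% of 14893 genes. In mock against untransfected cells 43 were higher and 1 lower, beside 29.7% and 29.2%. Between sample and mock cells 0 of the 44 were called, beside 0.0134% of all genes, while 6 had an unadjusted p under 0.05 and 40 had a log2 fold change below 0.

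Other genes of the pathway, from lists of factors that are not among the 44, were mostly higher as well. Of all tested genes, 20.2% were higher and 17.1% lower in sample cells, and 27.5% and 23.3% in mock cells. Of 42 other small subunit processome and 40S factors tested, 41 were higher and 0 lower in each of sample and mock cells, with median log2 fold changes of 0.76 and 0.95 per the authors' deposited tables. NOL6, a processome protein, had 6787 and 7333 normalized read counts in sample libraries, 7355 and 7557 in mock libraries and 2012 and 1929 in untransfected libraries, well apart from the transfected ones. Its log2 fold changes were 1.82 and 1.93, those of PDCD11 were 1.18 and 1.34, and those of PNO1 were 1.44 and 1.62 for sample and mock cells per the authors' deposited tables. The 1 factor not called was DDX47, at -0.12 and -0.03 per the authors' deposited tables. Of 48 other 60S factors 44 were higher and 1 lower in sample cells, and 46 higher and 1 lower in mock cells, with medians of 0.83 and 0.96 per the authors' deposited tables. EBNA1BP2, URB1 and NOC3L had log2 fold changes of 1.06, 1.19 and 1.15 in sample cells and 1.36, 1.27 and 1.26 in mock cells, whereas NOP53, a 60S factor that also binds 5S RNP proteins, fell by 0.50 in sample and fell by 0.47 in mock cells per the authors' deposited tables. On a list of subunit export and late 60S maturation genes, 7 of 9 were higher in sample and 8 of 9 in mock cells. Among them were the late 60S gene SBDS, mutated in Shwachman-Diamond syndrome, at 1.10 and 1.38 and the 60S export adaptor gene NMD3 at 0.75 and 1.03 per the authors' deposited tables. The export receptor gene XPO1 was called in neither group, at 0.03 and 0.13. EFL1, at 0.32 and 0.43, was called in mock cells only per the authors' deposited tables.

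Further RNA polymerase I genes were higher in 9 of 18 cases in sample and 15 of 18 in mock cells, with 0 lower and medians of 0.42 and 0.58 per the authors' deposited tables. POLR1G rose by 1.59 and 1.73, POLR1E by 0.87 and 1.02, and TCOF1, the treacle gene, by 1.05 and 1.00 in sample and mock cells per the authors' deposited tables. Not called in sample cells were POLR2E, POLR2H, POLR2K and POLR2L, whose subunits are shared with other RNA polymerases, and POLR1D, POLR1H, TAF1B, TTF1 and BAZ2A. For cytosolic ribosomal proteins, the structural parts of the ribosome, 77 genes were tested. Of these, 9 (11.7%) were higher and 2 lower in sample cells, where 20.2% of all genes were higher, and 41 (53.2%) were higher and 2 lower in mock cells, where 27.5% of all genes were higher, with median log2 fold changes of 0.07 and 0.23 per the authors' deposited tables. RPL24 had 9423 and 8408 normalized read counts in sample libraries, 9357 and 11165 in mock libraries and 7229.6 and 7508 in untransfected libraries, and RPL9 had log2 fold changes of 0.86 and 1.19 per the authors' deposited tables, though pseudogenes can share reads of both. RPLP1 had 0.67 (adjusted p = 0.191) in sample and 0.54 in mock cells by DESeq2 per the authors' deposited tables. Host genes of small nucleolar RNAs were higher in 5 of 12 cases (41.7%) in sample and 8 of 12 (66.7%) in mock cells, beside 20.2% and 27.5% of all genes. Their median log2 fold changes were 0.25 and 0.50, and 3 of the 12 were below 0 in sample and 1 in mock cells. The strongest calls included SNHG12 at 1.06 and 1.30, SNHG15 at 1.39 and 1.56 and SNHG16 at 0.66 and 0.75 per the authors' deposited tables. Between sample and mock cells 0 of 281 tested genes on all 10 other lists were called by DESeq2 per the authors' deposited table, with 2 at an unadjusted p under 0.05, and limma-voom called 0 of 281 with 13 at an unadjusted p under 0.05.

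MYC, the transcription factor gene named above, had 4135 and 5719 normalized read counts in sample libraries, 4223 and 4898 in mock libraries and 804 and 760.5 in untransfected libraries. Every transfected library stood far above both untransfected ones, and the sample and mock values overlapped. Its log2 fold change was 2.58 (SE 0.16) in sample and 2.54 (SE 0.09) in mock cells per the authors' deposited tables, more than any of the 44 genes. The list of MYC network genes, MYC included, was split, with 5 higher and 4 lower of 13 against untransfected cells in either transfected group, per the authors' deposited tables. These are 38.5% and 30.8% of a short list. Among all tested genes 20.2% were higher and 17.1% lower in sample cells, and 27.5% and 23.3% in mock cells. Besides MYC, the higher ones included MAX, the partner gene, at 1.11 in sample and 1.16 in mock cells, MXD1 at 0.95 and 1.23 and MLX at 0.60 and 0.69 on the log2 scale, per the authors' deposited tables. MLXIP was the last, at 1.19 with a wide SE of 0.43 in sample and 0.86 (SE 0.12) in mock cells per the authors' deposited tables. The lower ones were the MYC paralogs MYCN, at -2.76 in sample and -2.91 in mock cells, and MYCL, at -2.31 and -2.57, and MXD3, at -2.36 and -2.72, and MXD4, at -1.43 and -1.60, per the authors' deposited tables. MXD1, MXD3 and MXD4 code for repressors that compete with MYC for MAX, so that genes of this family stood on both sides. Whether these genes had a part in the change of the ribosome biogenesis genes was not tested.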

How the data were processed

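RNA was sequenced from 6 libraries of U2OS 2-6-3 cells, 2 each of sample, mock and untransfected cells, grouped by the transfection in the labels. The submitters' processing notes list Bowtie, STAR, DESeq2 and hg38, without roles. Tool versions, annotation, strand setting and counting were not given in the sources used here. Deposited by the authors are 3 tables of 40029 entries, each fitted to the 4 libraries of 2 groups. Per the file headers, columns give the mean signal (normalized reads), the log2 fold change with its standard error, a Wald score, and a p-value and adjusted p-value. The main results are these, called at an adjusted p under 0.05 in the authors' DESeq2 fits, with adjusted p-values as deposited, which each table gives for a filtered part of its entries.

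Whole counts per library were solved by lattice reduction from the deposited means for all 30527 entries with reads, within a relative tolerance of 1e-14, and on simulated data for 9809 of 9809 entries. They were divided by median-of-ratios size factors. Replicate numbers of the recovered libraries are not known. Symbols were matched for 39722 entries (99.23%). Since the tables hold no raw counts, edgeR was not run. Instead limma-voom was run on the recovered counts (R 4.3.3 with limma 3.58.1, mean of at least 10 normalized read counts, 3 residual degrees of freedom). On simulated counts with genes raised or lowered 2-fold against untransfected cells, it called 85.0% to 91.8% of changed genes and 0.05% to 0.14% of unchanged ones. No difference between sample and mock cells was simulated and dispersion was 0.01 in every library, so that check does not bear on this comparison. Scripts ran under Python 3.11.15 with pandas 2.3.3, numpy 2.4.6 and matplotlib 3.10.9. Transcript lengths came from GENCODE and promoters from RefSeq.

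The 44 genes and all lists were chosen with earlier results of these data known. Values per library are given for up to 3 genes with the smallest adjusted p in mock cells per role, genes opposite to their role, the 3 highest and 3 lowest fold changes per comparison and the 4 smallest in mock cells, and up to 3 called genes per other list. The alternatives changed the threshold, adjustment, filter, library sizes, test and libraries kept.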

Additional observations from a re-analysis of the deposited data

How the results depend on the processing

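The 43 rises against untransfected cells held at an adjusted p under 0.01, with adjustment over 1 entry per gene, with limma-voom, with total counts as library sizes, with no filter and with summed entries. Leaving out each library, 42 to 43 rose in sample and 43 to 43 in mock cells. The fall of UBTF in sample cells did not pass at an adjusted p under 0.01 (0 lower), and leaving out each library gave 0 to 1 lower in sample and 0 to 1 in mock cells. The median log2 fold change was 1.09 for sample cells, and 1.10 as a ratio of group means, 1.10 with limma-voom, 0.99 with total counts, 1.10 with no filter and 1.10 with summed entries, or 1.06 to 1.12 leaving out each library. For mock cells it was 1.24, and 1.21 with limma-voom, 1.08 with total counts, 1.21 with no filter and 1.21 with summed entries, or 1.19 to 1.23 leaving out each library. Total counts moved the median of all genes by -0.11 in sample and -0.13 in mock cells, and the calls over all genes to 2715 higher and 4330 lower in sample cells (3810 and 3729 with median-of-ratios sizes) and 3250 and 5123 in mock cells (4429 and 4354). Between sample and mock cells, leaving out each library gave 0 to 1 higher and 0 to 4 lower, all without sample library a, and a median of -0.17 to -0.10. With total counts, an alternative chosen after seeing the data, 27 of 44 genes had sample libraries apart from both other groups, against 30. Reads in sample library b limit the precision of every comparison with sample cells. No paired analysis was possible because the deposited tables do not tell which recovered library carries which replicate number.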

Other observations

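Genes that supply ribosome production from outside the nucleolus were also mostly higher. Over all tested genes the share called higher was 20.2% in sample and 27.5% in mock cells. Of 20 nucleotide and polyamine synthesis genes, 15 were higher and 1 lower in sample cells and 18 higher and 1 lower in mock cells, with medians of 0.64 and 0.66 on the log2 scale, per the authors' deposited tables. CTPS1, which makes CTP, had 8477 and 7881 normalized read counts in sample libraries, 9188 and 9553 in mock libraries and 3077 and 2977 in untransfected libraries, whereas CTPS2, its isozyme gene, fell by 1.08 in sample and dropped by 1.48 in mock cells on the log2 scale, per the authors' deposited tables. ODC1, the first enzyme of polyamine synthesis, rose by 1.22 and 1.45, and the nucleoside diphosphate kinase gene NME1 by 0.76 and 0.95, in sample and mock cells per the authors' deposited tables.

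Of 21 RNA polymerase III genes, 12 were higher and 1 lower in sample cells and 18 higher and 2 lower in mock cells per the authors' deposited tables. Higher were thus 57.1% and 85.7%, beside 20.2% and 27.5% of all tested genes. POLR3G had 1207 and 1021 normalized read counts in sample libraries, 1232 and 1241 in mock libraries and 436 and 411 in untransfected libraries. Its paralog POLR3GL, which takes the same place in the enzyme, fell by 0.78 in sample and dropped by 0.61 in mock cells, while POLR3G rose by 1.37 and 1.55, on the log2 scale, per the authors' deposited tables. MAF1, a repressor of RNA polymerase III, stood at -0.14 in sample cells (adjusted p = 0.376) and fell by 0.24 in mock cells by DESeq2 per the authors' deposited tables. Of 22 mitochondrial ribosome and translation genes, 17 were higher in sample cells and all 22 in mock cells, among them MRPL15 at 1.12 in sample and 1.31 in mock cells and MRPS2 at 1.42 and 1.32 per the authors' deposited tables. CTPS2, POLR3GL, MAF1, DDX47, NOP53, XPO1, EFL1 and the RNA polymerase I genes not called were named after their values were seen.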
